A study of Mus musculus with 2 samples.

Results

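The genes described here are 44 regulators of cell division: the cyclins and their kinases, the E2F factors and the pocket proteins that bind them, the proteins that license and copy DNA, and the regulators of mitosis. They were chosen by name, and all 44 were found among the 21938 protein-coding genes that GENCODE vM21 places on chromosomes 1 to 19, X and Y of the mouse genome GRCm38. Each gene was described by its promoter peaks, which are ATAC-seq peaks with their centre within 3 kb of any transcription start site (TSS) of the gene. The list labelled WT has 77596 peaks, of which 70 were promoter peaks of these genes, and the list labelled Bmi1 KO has 100431, of which 86 were. These are called the WT list and the KO list in what follows.

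ATAC-seq finds open chromatin, because the Tn5 transposase inserts sequencing adapters more readily into accessible DNA. Both libraries came from the organ of Corti, the sensory epithelium of the cochlea, of mice at postnatal day 2. The Bmi1 KO mice were Bmi1-/- in every tissue, from a Bmi1 mutant line backcrossed into C57BL/6J, and the WT mice were their littermates without the mutant allele. For each genotype the tissue of 10 mice was pooled and 1 library was made from 20000 cells, so there is 1 library per genotype, a difference between the lists has no replicate check, and no p-value is given. In pooled tissue, fewer cells with an open promoter and a less open promoter in each cell cannot be told apart.

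The peak names within the lists contradict the labels. All 77596 names in the WT list carry the knockout prefix and all 100431 names in the KO list carry the wild-type prefix, and neither the labels nor the methods say why, so every direction given for these lists rests on GEO's labels. Bmi1 itself, on chromosome 2 from 18677018 to 18686629, gave no check of the labels, since within 3 kb of the gene the WT list had 2 peaks and the KO list 4, and each list had a peak at its first exon. The KO library was deeper: the commonest background behind a peak was 8.04 reads against 6.32 reads in the WT library, a ratio of 1.27. Peaks were listed down to a −log10 p of 2 and 2.01, and 52.4% of the WT list and 62.8% of the KO list had a q-value under 0.05. Of the marker genes of the labelled tissue, all 4 of hair cells (Atoh1, Pou4f3, Gfi1 and Myo7a) and all 5 of supporting cells (Sox2, Prox1, Jag1, Lgr5 and Fgfr3) had a promoter peak in both lists. Of all protein-coding genes 53.0% had one in both. Of 3 markers each, 2 of neurons and 2 of endothelium, but 0 of mesenchyme and 0 of blood and macrophages, had one in both lists. Of mesenchyme, Pou3f4 and Tbx18 had one in the KO list only and Col1a1 in the WT list only. Of blood and macrophages, Csf1r had one in the WT list only, and Ptprc and Cd68 had none in either. The part of other cell types in the differences below was not tested.

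Cyclins activate cyclin-dependent kinases. The D cyclins with Cdk4 and Cdk6, and then the E cyclins with Cdk2, phosphorylate the pocket proteins Rb1, Rbl1 and Rbl2, which until then hold E2F factors at the promoters of genes for DNA synthesis. The genes of mitosis are mostly held down in resting cells through a different promoter element, the cell cycle genes homology region (CHR), which is bound by the MuvB core of the DREAM complex and often stands near CCAAT boxes bound by NF-Y. At this age hair cells and most supporting cells of the organ of Corti have left the cell cycle, and Bmi1 belongs to the Polycomb repressive machinery that is known for restraining inhibitors of the cell cycle.

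Nearly all of these genes had a promoter peak in both lists as deposited, whichever genotype a list belonged to. A promoter peak was called in both lists at 39 of the 44 genes (88.6%, exact binomial 95% interval 75.4% to 96.2%), against 53.0% of all protein-coding genes. With peaks of a −log10 q of at least 1.3 alone it was 30 of the 44, against 39.5% of all. The other 5 genes, E2f6, Rbl1, Plk1, Mcm2 and Top2a, had a promoter peak in the KO list only (11.4%, interval 3.79% to 24.6%), and here the background was 15.2%. No gene had a promoter peak in the WT list only, where the background was 6.10%, and none lacked a promoter peak, where the background was 25.7%. The intervals for these 0 of 44 genes reach up to 8.04%. Intervals cover counting error only and take the genes as independent, and the share in the KO list only did not differ from its background beyond that error. The plot of shares shows these counts beside those of all genes.

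**Figure D1:**
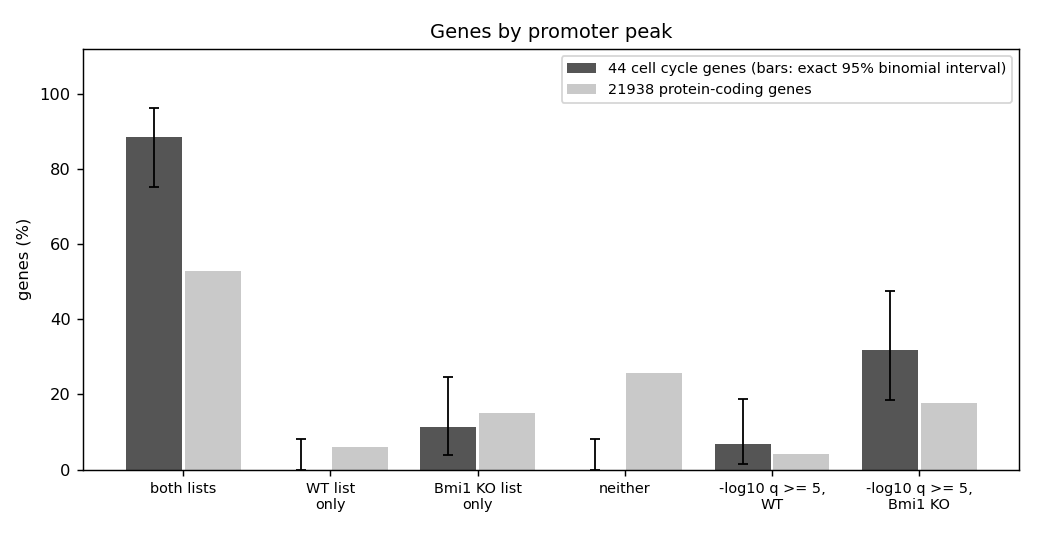
Share of genes (y axis, percent) with a promoter peak in both lists, in a single list or in neither, and with a promoter peak of a −log10 q of at least 5, for the 44 cell cycle genes (dark bars, with exact 95% binomial intervals) and for 21938 protein-coding genes (light bars). The share with a peak in both lists was 88.6% against 53.0%, whereas the interval of the KO-only share includes its background.

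These promoters differ from those of other genes in base composition, which moved with that share. The CpG observed over expected ratio of a 300-base promoter window had a median of 0.91 among the 44 genes and 0.54 among all, and the GC content was 62.7% against 56.7%. Among windows with a ratio of at least 0.6, a limit chosen after seeing the data, 33 of 37 cell cycle genes (89.2%, interval 74.6% to 97%) and 77.7% of 10082 protein-coding genes had a promoter peak in both lists. This interval includes its background, so among CpG-rich promoters the share did not differ from it beyond counting error. The cell cycle genes also had more annotated TSSs, with a median of 5 against 3, and so a larger promoter region.

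The strongest promoter peak of most of these genes stood higher in the ranking of the KO list than in that of the WT list. Peaks were ranked by −log10 p within their list and the rank was given as a percentile. The lists differ in length and depth, so a rank is not a height: E2f8 went from percentile 49.6 to 66.6 and Ccnb1 from 81 to 88.6, with KO over WT ratios of height above background of 1 and 0.983. The median percentile of the strongest promoter peak was 85.2 in the WT list, over the 39 genes with a peak there, and 92.1 in the KO list over 44 genes, against 76.8 and 87.3 over all genes with a promoter peak in that list. At 37 of 44 genes (84.1%, interval 69.9% to 93.4%) this peak ranked higher in the KO list or was present there only, and this was so at 68.6% of the protein-coding genes that had any promoter peak. With equal numbers of peaks from both lists the count was 31 of 42 (73.8%, interval 58% to 86.1%, against 62.2%), and that interval includes its background. Among the 39 genes with a peak in both lists it was 32 (82.1%, interval 66.5% to 92.5%) against 67.5%. This interval also includes its background, as does that of CpG-rich windows (83.8%, interval 68.0% to 93.8%, against 73.7%). A −log10 q of at least 5 was reached by 3 genes in the WT list (E2f1, Mcm6 and Wee1, 6.82%, background 4.17%) and by 14 in the KO list (31.8%, interval 18.6% to 47.6%, background 17.6%), which has the deeper library.

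The height of the peaks above their background differed less between the lists. Pileup is the number of reads stacked at the summit, and its ratio to the local background allows for the depth of a library. The ratio had a median of 3.12 in the WT list (1.93 to 4.43) and 3.07 in the KO list (1.95 to 4.93), and it was higher in the KO list at 24 of 39 genes (61.5%, interval 44.6% to 76.6%), against 51.7% of all genes with both peaks. KO over WT, it had a median of 1.08 (0.733 to 1.63), against 1.01 over all genes. The exact Poisson intervals of the 2 libraries overlapped at all 39 genes, so no single promoter was shown to differ in height. Such overlap is not a test of a difference, and the intervals take the background as known. At 11 of these genes the strongest peaks of the lists do not overlap, so the heights there belong to different places. The strongest peak was wider in the KO list at 31 of 39 genes (79.5%, against 73.0% of all genes).

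**Figure D2:**
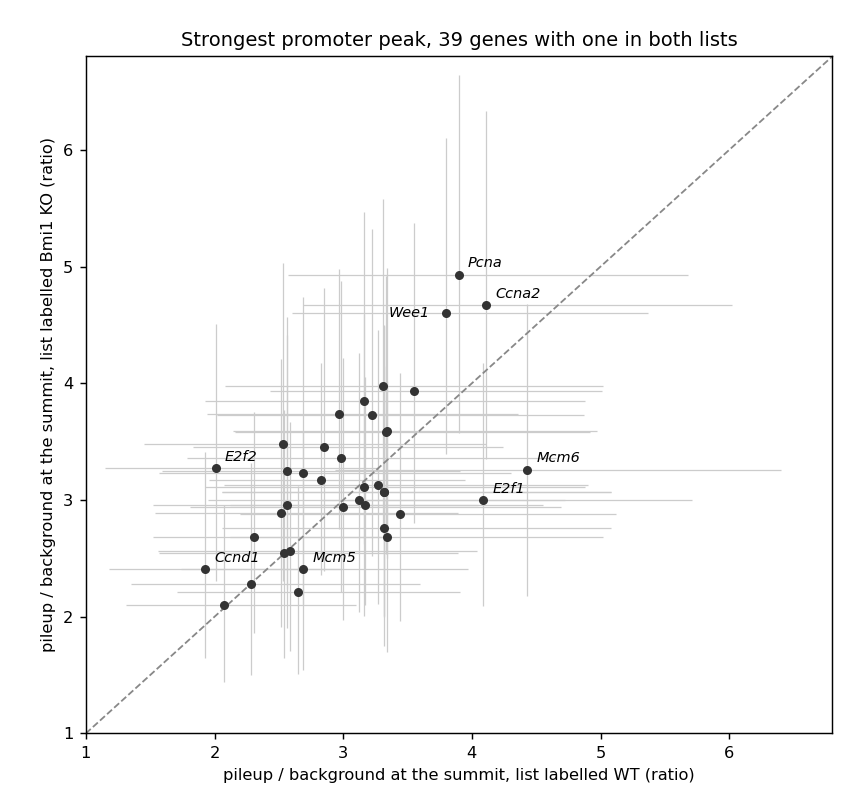
Pileup over local background at the summit of the strongest promoter peak in the list labelled WT (x axis, ratio) and in the list labelled Bmi1 KO (y axis, ratio) for the 39 genes with a promoter peak in both; grey bars are exact 95% Poisson intervals and the dashed line marks equal ratios. Of the 39 points, 24 lie above the line, and the bars of each gene overlap between the lists.

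The peaks sat at the start sites. The strongest promoter peak was centred within 500 bp of a TSS at 33 of 39 genes in the WT list and at 40 of 44 in the KO list (84.6% and 90.9%), against 62.2% and 71.0% of all genes with a promoter peak. Of the 70 WT promoter peaks 43 overlapped a KO peak by at least 1 bp (61.4%, interval 49.0% to 72.8%), against 48.8% of promoter peaks of all genes. Of the 86 KO promoter peaks 38 overlapped a WT peak (44.2%, interval 33.5% to 55.3%), against 36.6%. At 28 of the 39 genes the strongest peaks of both lists overlapped each other (71.8%, interval 55.1% to 85.0%, against 55.3%). The intervals of this share and of the KO overlap include their backgrounds. In these 28 genes the strongest peaks share at least 1 bp, but their summits can lie far apart, as at Ccne2 (738 bp). The strongest peak ranked higher in the KO list at 23 of them (82.1%, interval 63.1% to 93.9%), against 69.2% of all genes with overlapping strongest peaks. This interval includes its background. At the other 11, which are Ccna1, Ccnd1, Ccnd2, Ccnd3, Cdk1, E2f2, E2f4, Cdc25a, Mcm3, Mcm7 and Cdt1, the strongest peaks lay at different positions.

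**Figure D3:**
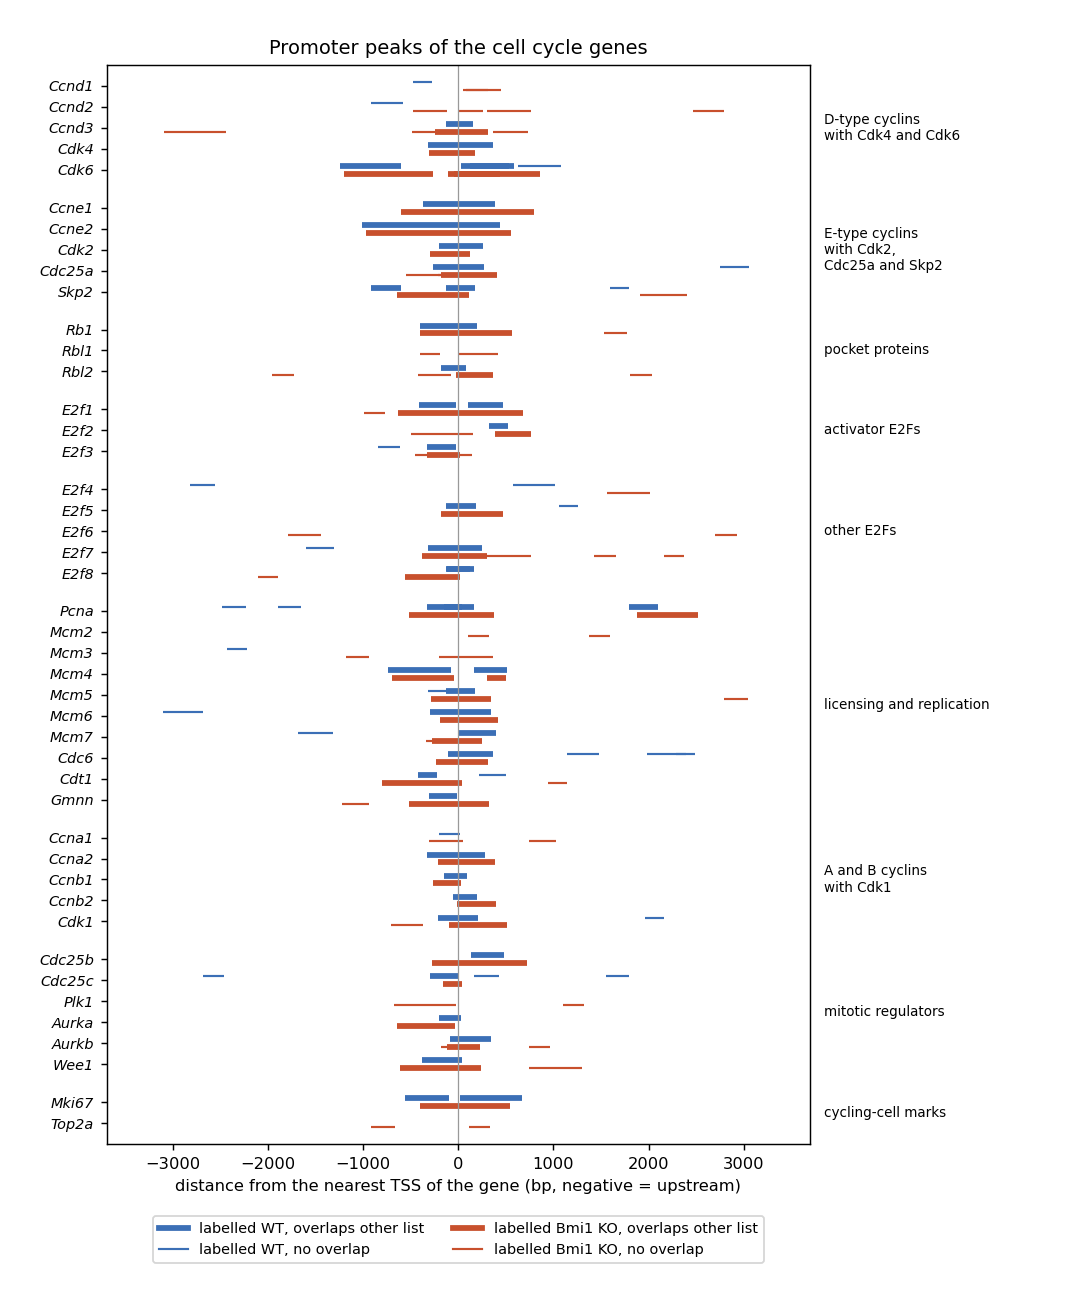
Promoter peaks of each gene (rows, grouped by role) by distance from the nearest TSS of that gene (x axis, bp, negative upstream), blue for the list labelled WT and orange for the list labelled Bmi1 KO; thick bars overlap a peak of the other list and thin bars do not, and peaks near different TSSs of a gene are drawn on the same axis. Thick bars gather around the TSS, and Rbl1, E2f6, Mcm2, Plk1 and Top2a have orange bars only.

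The consensus words in the promoter sequences differed between the role groups. A window from 250 bases before to 50 after 1 TSS of each gene was searched on both strands. The TSS was the one nearest the summit of the gene's strongest promoter peak, by percentile, in either list. The E2F consensus (the words TTTCCCGC, TTTCGCGC, TTTGCCGC and TTTGGCGC) was found at 16 of 44 genes (36.4%, interval 22.4% to 52.2%) and in the windows of 2.80% of all protein-coding genes, or 4.97% of CpG-rich ones. The CHR (TTTGAA or TTCGAA) was found at 15 genes (34.1%, interval 20.5% to 49.9%), against 16.5% of all and 10.4% of CpG-rich windows. For the CHR this rested on the window: from 500 bases before to 100 after the TSS it was found at 43.2% of the genes (interval 28.3% to 59%) against 34.2% of all, and at any TSS of the gene at 52.3% (36.7% to 67.5%) against 40.5%, and both intervals include their backgrounds. CCAAT was found at 28 genes (63.6%, interval 47.8% to 77.6%), against 37.8%, and the GC box GGGCGG at 35 (79.5%, interval 64.7% to 90.2%), against 44.3% of all but 75.2% of CpG-rich windows. Of the 24 E2F matches 6 overlap another match of the 4 words. A match is a run of letters and not a measured binding site.

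Licensing and replication genes held the E2F words, at 8 of 10, and the CHR at 2 of 10. Among the 6 mitotic regulators and the 2 marks of cycling cells the CHR was found at 6 and 2, and an E2F word at 0 of both. The D-type group, 5 genes, held neither. Only 1 TSS per gene was searched, and at Ccnd2, E2f4 and E2f6, among others, it was an internal one. The CpG ratios there were 0.104, 0.294 and 0.0752, and the other TSSs of these genes are not described by these counts. Both elements stood together at E2f3, Cdk1, Mcm2 and Gmnn, 4 of 44 genes (9.09%, interval 2.53% to 21.7%), against 0.397% of all. The groups were formed by the roles of the genes, which are known in part from such elements, so the split is a description of the reference promoters behind the peaks.

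**Figure D4:**
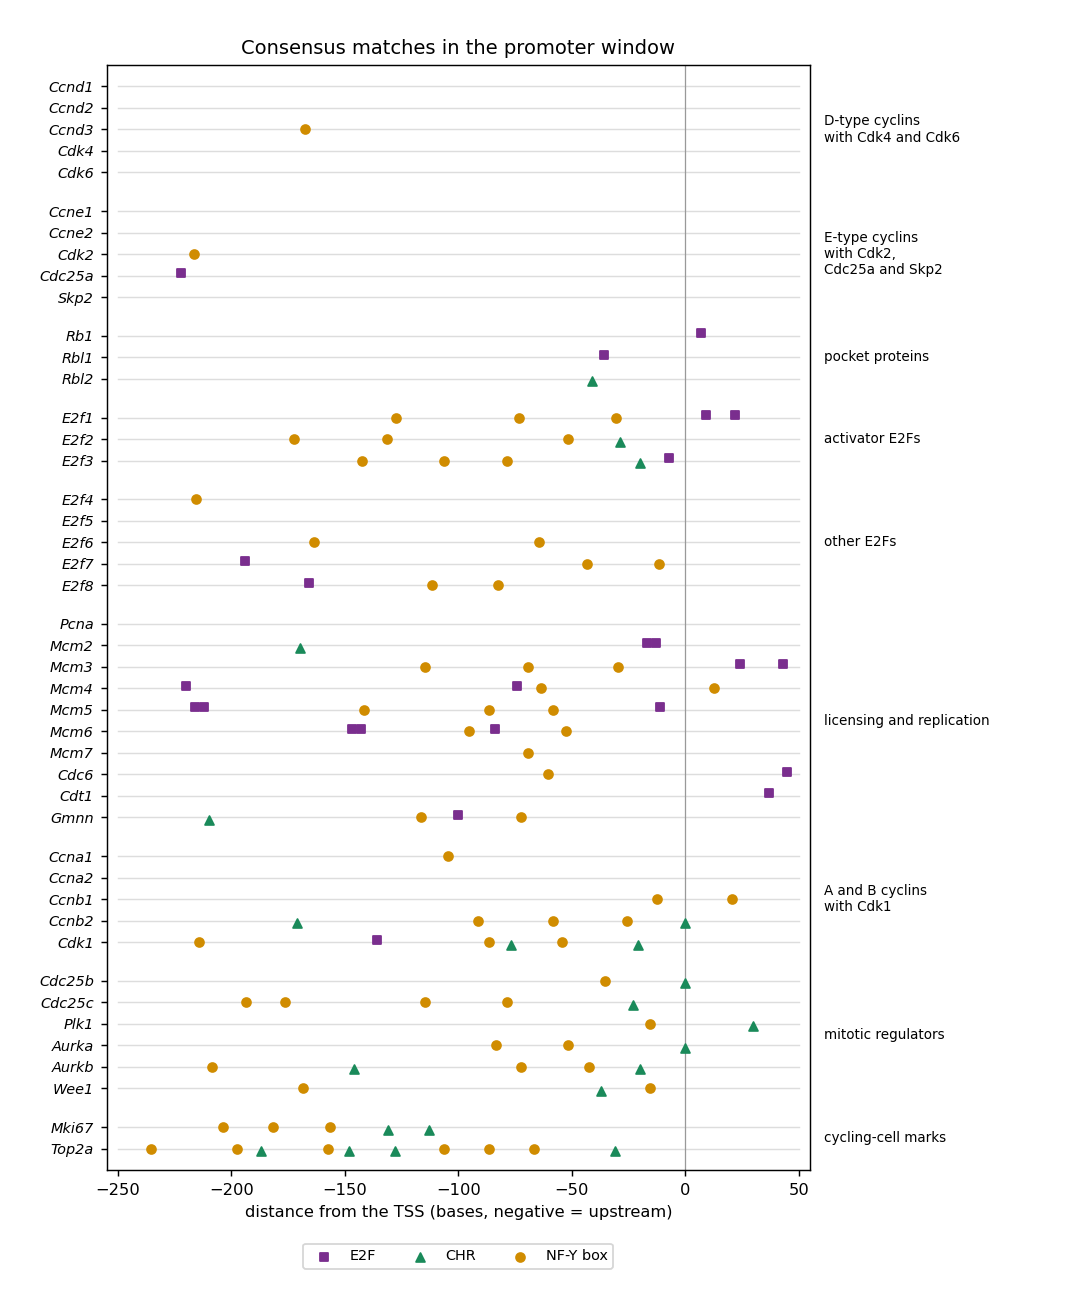
Positions of E2F (squares), CHR (triangles) and CCAAT box (circles, labelled NF-Y box) matches in the promoter window of each gene (rows, grouped by role), by distance from the TSS (x axis, bases, negative upstream). Squares gather among licensing and replication genes, where 8 of 10 have one, and triangles among mitotic regulators, where 6 of 6 do.

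The sequences below are those of genes with an E2F word and a CHR or CCAAT box in 1 window, taken from the strongest peaks down, and they show how closely the elements are packed. Cdc6 also meets this rule, and its sequence is not printed because its E2F word, at 41, lies beyond the first 30 transcribed bases, the most that is shown. The list stops at E2f7, and Mcm3, Mcm5, E2f8 and Mcm2, whose strongest peaks are weaker, meet the rule too and are not printed. The stretch of Gmnn leaves out its CHR at -213. They are reference sequences of GRCm38 on the strand of the gene, 5′ to 3′, and capitals mark E2F, CHR and CCAAT matches on either strand. E2f3 reads from -145 to 5 around the TSS, where 1 is the first transcribed base, and its CHR at -23 and E2F word at -11 stand side by side.
E2f3, chr13:29986059-29986208, minus strand: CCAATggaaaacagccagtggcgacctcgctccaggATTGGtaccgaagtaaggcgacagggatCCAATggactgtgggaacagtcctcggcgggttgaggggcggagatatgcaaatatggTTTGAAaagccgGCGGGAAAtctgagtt
E2f1, chr2:154569863-154570022, minus strand: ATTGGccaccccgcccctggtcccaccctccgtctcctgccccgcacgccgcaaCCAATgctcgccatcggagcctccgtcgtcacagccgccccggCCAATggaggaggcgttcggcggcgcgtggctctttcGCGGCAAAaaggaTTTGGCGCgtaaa
Mcm4, chr16:15637379-15637624, minus strand: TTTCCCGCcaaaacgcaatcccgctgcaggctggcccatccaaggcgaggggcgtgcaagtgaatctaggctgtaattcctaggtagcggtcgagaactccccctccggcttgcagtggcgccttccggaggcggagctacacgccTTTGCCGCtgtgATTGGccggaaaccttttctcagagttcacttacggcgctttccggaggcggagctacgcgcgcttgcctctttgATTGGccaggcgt
Mcm6, chr1:128359707-128359815, minus strand: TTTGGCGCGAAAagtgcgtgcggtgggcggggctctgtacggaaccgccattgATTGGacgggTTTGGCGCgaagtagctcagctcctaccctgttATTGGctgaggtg
Cdk1, chr10:69352914-69353120, minus strand: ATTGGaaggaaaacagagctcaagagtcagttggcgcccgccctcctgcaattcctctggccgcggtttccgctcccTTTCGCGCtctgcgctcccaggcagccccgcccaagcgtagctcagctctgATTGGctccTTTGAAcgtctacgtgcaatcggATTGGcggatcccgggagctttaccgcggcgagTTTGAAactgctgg
Gmnn, chr13:24761539-24761595, minus strand: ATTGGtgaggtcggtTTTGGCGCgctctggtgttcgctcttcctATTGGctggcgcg
E2f7, chr10:110745241-110745437, plus strand: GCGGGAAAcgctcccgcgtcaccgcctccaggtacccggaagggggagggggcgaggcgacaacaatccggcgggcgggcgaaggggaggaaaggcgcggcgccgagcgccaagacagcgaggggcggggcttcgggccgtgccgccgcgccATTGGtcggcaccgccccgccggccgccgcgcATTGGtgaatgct

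Some of these elements lay inside called peaks and others beside them. Of the 24 E2F matches 11 lay within a WT peak, 20 within a KO peak, 10 within peaks of both lists and 3 within none. At Mcm6, Gmnn and E2f7 the E2F words lay within a peak of both lists, at E2f3 and E2f1 within a KO peak only, and at Cdk1 within a WT peak only. The 22 CHR matches were within a WT peak 11 times, within a KO peak 12 times and within none 8 times. KO peaks were wider, with a median of 592 bp for the strongest promoter peak against 308 bp. Each window was also placed by the strongest peak of either list, a KO peak at 37 of 44 genes, so the counts do not weigh the lists evenly. The part of width and of placement in these counts was not tested, and the same counts over all genes are not given.

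The CHR is shown in the genes with at least 2 of them and no E2F word, a set chosen after the matches were seen. Top2a carries 4 CHR and 6 CCAAT matches from -238 to -21, and none of its CHR matches lay within a peak of either list.
Ccnb2, chr9:70421537-70421721, minus strand: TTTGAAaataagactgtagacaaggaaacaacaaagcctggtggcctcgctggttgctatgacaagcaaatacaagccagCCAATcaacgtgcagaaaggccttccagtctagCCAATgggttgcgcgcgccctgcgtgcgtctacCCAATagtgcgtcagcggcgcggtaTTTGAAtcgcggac
Aurkb, chr11:69045460-69045661, plus strand: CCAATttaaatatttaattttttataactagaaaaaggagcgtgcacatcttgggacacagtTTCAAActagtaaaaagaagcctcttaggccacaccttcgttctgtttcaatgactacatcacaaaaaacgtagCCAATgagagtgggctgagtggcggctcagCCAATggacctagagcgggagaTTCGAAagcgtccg
Mki67, chr7:135716464-135716567, minus strand: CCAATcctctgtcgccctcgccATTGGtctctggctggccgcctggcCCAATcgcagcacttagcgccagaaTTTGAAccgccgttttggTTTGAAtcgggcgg
Top2a, chr11:99024199-99024416, minus strand: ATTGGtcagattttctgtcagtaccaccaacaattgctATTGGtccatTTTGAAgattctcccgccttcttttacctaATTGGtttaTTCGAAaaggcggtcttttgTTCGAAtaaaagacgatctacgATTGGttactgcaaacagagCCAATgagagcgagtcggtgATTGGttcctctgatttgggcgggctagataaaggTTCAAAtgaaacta

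The D-type group starts the cycle in answer to growth signals. All 5 genes had a promoter peak in both lists, and 3 ranked higher in the KO list. For this and each role group below, the backgrounds are 53.0% with a peak in both lists and 68.6% ranked higher in the KO list or found there only. The groups are small, so their counts are descriptions only. At Cdk4, whose kinase the D cyclins activate, the WT peak (chr10:127063213-127063901) had 34 reads over a background of 12 and a −log10 q of 3.37, at percentile 95.4. The KO peak (chr10:127063224-127063709) had 51 reads over 16.1 and a −log10 q of 7.97, at percentile 98.3. Cdk6, the second kinase of the D cyclins, had 24 reads over 6.98 in the WT list (chr5:3344341-3344840) and 31 over 10.8 in the KO list (chr5:3344198-3344751), at percentiles 93.9 and 90.9. Both kinase promoters were thus near the top of both lists. The cyclins themselves were not. Ccnd1, which encodes cyclin D1, had a weak WT peak centred at -375 bp from the TSS (chr7:144940200-144940399, 20 reads over 10.4, percentile 1.32) and a KO peak centred 181 bp after it (chr7:144939558-144939817, 32 reads over 13.3, percentile 80.2). These peaks do not overlap, and the ratios to background were 1.93 (Poisson interval 1.18 to 2.98) and 2.41 (1.65 to 3.41). Ccnd2 was at percentiles 14.9 and 53.0, and Ccnd3 at 75.8 and 64.1, lower in the KO list and with its strongest peaks at different TSSs.

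The E-type group drives entry into S phase. All 5 genes had a promoter peak in both lists and all 5 ranked higher in the KO list (background 68.6%), some by little. Ccne1, cyclin E1, had 32 reads over 9.02 in the WT list (chr7:38107118-38107874, −log10 q 4.99) and 39 over 9.92 in the KO list (chr7:38106708-38108103, −log10 q 8.18). Its percentile was 98.4 in both lists, with a difference of 0.0306. Ccne2, cyclin E2, had the widest strongest peaks of the 44 genes, 1450 bp in the WT list (chr4:11190339-11191788) and 1529 bp in the KO list (chr4:11190378-11191906), with 25 reads over 7.5 and 38 over 10.6. Cdk2, the partner of the E cyclins, went from percentile 46.0 to 86.9 with summits 57 bp apart, and its promoter is shared with Pmel. Cdc25a, the phosphatase that activates Cdk2, was at 93.3 and 97.2, and Skp2, which marks inhibitors of Cdk2 for breakdown, at 87.8 and 89.7. The promoter of Skp2 is shared with Lmbrd2.

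The pocket proteins restrain E2F. Rb1 and Rbl2 had a promoter peak in both lists and Rbl1 in the KO list only. At Rb1, the retinoblastoma gene, the WT peak (chr14:73325625-73326226) had 21 reads over 6.32 and the KO peak (chr14:73325257-73326224) 23 over 8.32, with a −log10 q of 2.44 and 2.18 and percentiles of 87.8 and 74.1. Rb1 was thus among the 7 genes that ranked lower in the KO list. Rbl1, which encodes p107, had 28 reads over 8.04 in a KO peak just downstream of the TSS (chr2:157204096-157204504, −log10 q 4.49, percentile 94.7) and 25 reads over 8.04 in a second KO peak upstream of it (chr2:157204723-157204941, percentile 88.6). It is the strongest of the genes with peaks in a single list, and its E2F word at -40 lay in the gap between the peaks. Rbl2, which encodes p130, had 18 reads over 7.02 in the WT list (chr8:91069872-91070141, percentile 34.1) and 24 over 8.10 in the KO list (chr8:91070128-91070521, percentile 82.7). Its ratios to background, 2.56 (1.52 to 4.05) and 2.96 (1.90 to 4.41), overlapped widely.

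Among the activator E2Fs, which switch on the genes of S phase, the promoters of E2f1 and E2f3 were strong in both lists and that of E2f2 was weak in the WT list. E2f1 had 34 reads over 8.32 in the WT list (chr2:154569922-154570301, −log10 q 6.91, percentile 99.3) and 35 over 11.7 in the KO list (chr2:154569038-154570358, −log10 q 4.49, percentile 94.9). It was the highest ranked of the 44 genes in the WT list, and its ratio to background, 4.09 (2.83 to 5.71) against 3.00 (2.09 to 4.17), had the lowest KO over WT value, 0.733. E2f3 had 26 reads over 8.74 in the WT list (chr13:29986088-29986388, −log10 q 2.62) and 47 over 12.6 in the KO list (chr13:29986045-29986389, −log10 q 9.47), with summits 1 bp apart. Its percentiles were 90 and 98.8. E2f2 had the largest difference in rank. The WT peak at its upstream TSS (chr4:136172719-136172918, 16 reads over 7.98) was at percentile 0.577, and the KO list had a peak overlapping it (chr4:136172783-136173162, 35 reads over 11.1, percentile 95.5) and another at the second TSS (chr4:136180288-136180938, 37 reads over 11.3, percentile 96.7). The ratios to background of the strongest peaks, which lie at different TSSs, were 2.01 (1.15 to 3.26) and 3.27 (2.31 to 4.51).

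The other E2Fs are repressors or partners of the pocket proteins. E2f4, E2f5, E2f7 and E2f8 had a promoter peak in both lists and E2f6 in the KO list only. All 5 ranked higher in the KO list or were found there only (background 68.6%). E2f5 had 20 reads over 6.32 in the WT list (chr3:14578545-14578861, percentile 81) and 31 over 8.04 in the KO list (chr3:14578485-14579145, percentile 97), with summits 8 bp apart at the TSS. E2f7, a repressor without a pocket protein partner, had 19 reads over 6.32 (chr10:110745122-110745685, percentile 70.8) and 29 over 9.88 (chr10:110745057-110745743, percentile 90.3). Its ratios to background were 3.00 and 2.94, so the height above background was nearly equal while the rank was not. E2f8 was at percentiles 49.6 and 66.6. E2f4, the main E2F of resting cells, was at 15.3 and 51.8 with no shared peak, and its KO peak (chr8:105305490-105305937) covers the TSS of Elmo3. At E2f6 neither KO peak was near a TSS: the stronger one (chr12:16822362-16822702, 18 reads over 8.04, −log10 q 0.84) was centred at -1619 bp, at percentile 15.8.

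Licensing loads the MCM helicase onto origins before S phase, and Pcna, the sliding clamp, holds the polymerases on DNA during it. Of these 10 genes 9 had a promoter peak in both lists and Mcm2 in the KO list only. With Mcm2 counted, 7 ranked higher in the KO list or were found there only (background 68.6%). Pcna had 27 reads over 6.92 in the WT list (chr2:132253153-132253460, −log10 q 4.70, percentile 98) and 43 over 8.72 in the KO list (chr2:132252596-132253488, −log10 q 12.28, percentile 99.4). Its KO ratio to background, 4.93 (3.57 to 6.64), was the highest of the 44 genes in that list, and the WT ratio was 3.90 (2.57 to 5.68). Mcm4, a subunit of the helicase, had 22 reads over 6.64 in the WT list (chr16:15637473-15638136, percentile 90) and 33 over 8.30 in the KO list (chr16:15637449-15638101, percentile 97.7), in a promoter shared with Prkdc.

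The subunits of the MCM helicase, which work as a single complex, did not share a direction. By the strongest peak, Mcm4 ranked higher in the KO list, and Mcm3, Mcm5 and Mcm6 ranked lower. Mcm7 was at percentiles 95.6 and 95.8 with its strongest peaks 3960 bp apart, and at the promoter peaks that overlap (chr5:138171419-138171810 and chr5:138171569-138172092) it was at 62 in the WT list and 82.1 in the KO list. The latter KO peak also covers the TSS of Ap4m1. At Mcm3 the strongest peaks lie at different positions too. Mcm6 had 28 reads over 6.32 in the WT list (chr1:128359306-128359941, −log10 q 6.03) and 29 over 8.90 in the KO list (chr1:128359232-128359843, −log10 q 4.17), at percentiles 99 and 94. Mcm5 had 25 reads over 9.30 (chr8:75109444-75109749) and 24 over 9.96 (chr8:75109334-75109971), at percentiles 76.9 and 53.1 and with summits 9 bp apart. This was the largest fall in rank, and the ratios to background, 2.69 (1.74 to 3.97) and 2.41 (1.54 to 3.59), overlapped. At Mcm3 the WT list had a single peak, centred at -2327 bp from the TSS (chr1:20822536-20822741, percentile 91.1), whereas the KO list had a peak at the TSS (chr1:20819899-20820461, 21 reads over 8.96, percentile 36.2) and a stronger one centred at -1059 bp (percentile 72.1). Mcm2 had a weak KO peak 213 bp downstream of a TSS (chr6:88898353-88898574, 26 reads over 13.4, −log10 q 0.85, percentile 19.4).

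The loading factors ranked higher in the KO list. Gmnn encodes geminin, the inhibitor of Cdt1. Its WT peak (chr13:24761488-24761781) had 16 reads over 6.32, a −log10 q of 0.90 and percentile 23.3, and its KO peak (chr13:24761152-24761993) had 28 reads over 8.04, a −log10 q of 4.49 and percentile 94.7. With summits 67 bp apart, this was the largest difference in rank among the 28 genes whose strongest peaks overlap, and the ratios to background were 2.53 (1.45 to 4.11) and 3.48 (2.31 to 5.03). Cdc6, which brings the helicase to origins with Cdt1, was at percentiles 85.2 and 92.7, and Cdt1 at 53.0 and 90.4 with its strongest peaks 4205 bp apart.

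The A and B cyclins with Cdk1 run S phase and mitosis. All 5 genes had a promoter peak in both lists, and all 5 ranked higher in the KO list (background 68.6%). Ccna2, the cyclin A of dividing somatic cells, had 26 reads over 6.32 in the WT list (chr3:36571682-36572297, −log10 q 4.85, percentile 98.2) and 41 over 8.78 in the KO list (chr3:36571765-36572367, −log10 q 10.89, percentile 99.2). Its germline paralog Ccna1 was at percentiles 67.1 and 93.4. Cdk1 had a WT peak at its start (chr10:69352701-69353128, 20 reads over 8.02, percentile 45.0) that overlapped the strong KO peak there (chr10:69352394-69352997, 33 reads over 10.1, −log10 q 4.91, percentile 95.4), and a WT peak 2062 bp from another TSS ranked slightly above the former, at 50.6. Ccnb2, cyclin B2, had 17 reads over 6.32 (chr9:70421346-70421601, −log10 q 1.15, percentile 40.1) and 26 over 8.04 (chr9:70421147-70421561, −log10 q 3.56, percentile 91.4). Ccnb1, cyclin B1, was at 81.0 and 88.6, and its ratio to background was nearly equal, with a KO over WT value of 0.983.

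The mitotic regulators held the strongest promoter peak of the 44 genes by −log10 p, that of Wee1 in the KO list. Of the 6 regulators 5 had a promoter peak in both lists and Plk1 in the KO list only. All 6 ranked higher in the KO list or were found there only (background 68.6%). Wee1, the kinase that holds Cdk1 inactive before mitosis, had 32 reads over 8.42 in the WT list (chr7:110121662-110122079, −log10 q 5.65, percentile 98.8) and 48 over 10.4 in the KO list (chr7:110121436-110122288, −log10 q 12.81, percentile 99.5). No other gene of the 44 reached a −log10 q of 5 in both lists. Aurka, the centrosomal Aurora kinase, had 24 reads over 8.42 (chr2:172370504-172370743, percentile 83.4) and 34 over 9.86 (chr2:172370566-172371177, percentile 96.6), in a promoter shared with Cstf1. Aurkb was at 46.2 and 80.7, and the phosphatases Cdc25b and Cdc25c at 90.5 and 93.1 and at 87.8 and 89.7. The promoter of Cdc25b is shared with Spef1. Plk1, the Polo-like kinase of mitotic entry, had 27 reads over 9.90 in a KO peak just upstream of its TSS (chr7:122158757-122159410, −log10 q 2.61, percentile 82.1).

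The 2 marks of cycling cells differed. Mki67, which encodes the Ki-67 antigen, had 22 reads over 6.84 in the WT list (chr7:135716458-135716917, −log10 q 2.44, percentile 86.5) and 30 over 8.04 in the KO list (chr7:135715814-135716759, −log10 q 5.49, percentile 96.4). Top2a, the topoisomerase of S phase and mitosis, had no WT promoter peak and 2 KO peaks of 23 reads over 8.04 each (chr11:99023842-99024068 and chr11:99024852-99025111, −log10 q 2.33, percentile 78.0), to either side of the TSS. The percentiles of all 44 genes are in the plot of the strongest promoter peaks.

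**Figure D5:**
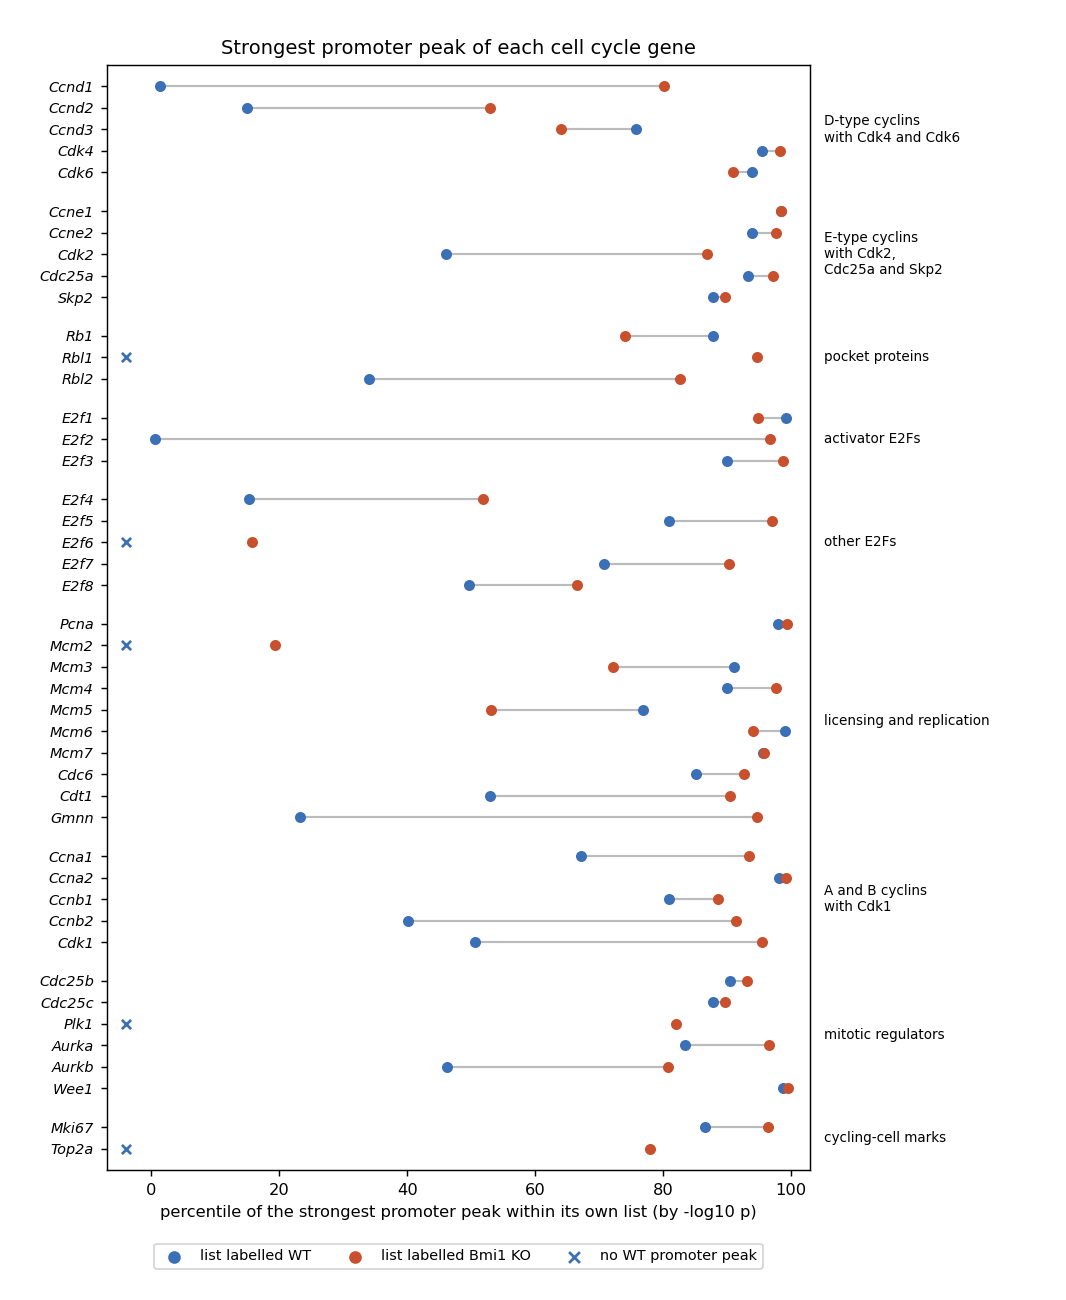
Percentile of the strongest promoter peak of each gene (rows, grouped by role) within its own list, ranked by −log10 p (x axis), blue for the list labelled WT and orange for the list labelled Bmi1 KO, with a cross where the WT list has no promoter peak. Orange lies to the right of blue, or stands alone, at 37 of 44 genes, and the longest line is that of E2f2, 0.577 and 96.7.

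The 5 genes with a promoter peak in the KO list only differed in strength. With equal numbers of peaks from both lists, Rbl1, Plk1 and Top2a still had a promoter peak in the KO list only, whereas E2f6 and Mcm2 had none in either. Some of the strongest peaks were themselves weak, since 30 of the 39 strongest WT peaks and 42 of the 44 strongest KO peaks had a q-value under 0.05. With peaks of a −log10 q of at least 1.3 alone, the number of genes with a promoter peak in the KO list only went from 5 to 12, the added genes being Aurkb, Ccnb2, Ccnd1, Ccnd2, Cdk2, E2f2, E2f4, Gmnn and Rbl2, and it was still 0 for the WT list. Over all protein-coding genes the KO-only share rose as well, from 15.2% to 20.9%.

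The wider pathway was counted over 83 further genes of the DREAM complex, of origins and forks, of the spindle and kinetochore, and of the ubiquitin ligases APC/C and SCF. Of these 83, 61 had a promoter peak in both lists, 5 in the WT list only, 11 in the KO list only and 6 in neither. The backgrounds over all protein-coding genes were 53.0%, 6.10%, 15.2% and 25.7%, and the share in the KO list only was not above its own. The strongest peak ranked higher in the KO list, or was found there only, at 53 of the 77 with a peak, near the background of 68.6%. By −log10 q, with the KO library the deeper, the strongest promoter peaks in a single list were those of Kif11, the kinesin that separates spindle poles (−log10 q 6.65), Cks1b and Skp1a, partners of Skp2 (5.82 and 5.17), Bub1b of the spindle checkpoint (3.16) and Lin54, the CHR-binding subunit of MuvB (3.06), all in the KO list. The 5 genes in the WT list only, named after their values were seen, were Rfc5 at percentile 89.5, level with Bub1b in its own list, Nuf2 at 81, Tpx2 at 70.8, Cenpa at 31.1 and Tk1 at 17.7.

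Outside promoters the gene bodies were described by density. The 44 genes have 0.841 Mb of gene body beyond their promoter regions, which held 33 WT and 45 KO peaks, or 39.3 and 53.5 per Mb, against 32.9 and 41.8 per Mb over all protein-coding genes. Of these peaks 5 in each list overlapped the other (15.2% and 11.1%, against 15.9% and 12.4%), far fewer than at the promoters. The largest numbers were in the long genes E2f3 (5 WT and 7 KO peaks), Cdk6 (4 and 5) and Ccnd3 (3 and 6).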

How the data were processed

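The study made ATAC-seq libraries of the P2 organ of Corti, 1 per genotype. Per the study's methods and the submitters' processing notes, the authors removed adapters, aligned reads to mm10 with BWA and ran MACS2 on each library. Its version and options are not given in the sources used here. The deposited fold enrichment is a ratio of pileup to local background, each with 1 added. The deposited −log10 p and −log10 q are those of that pileup under a Poisson model, and the deposited score column was not used.

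Unplaced sequences were left out, which kept 77596 of 77826 WT and 100431 of 100668 Bmi1 KO peaks. The pileup and background were solved from fold enrichment and −log10 p, which gave whole numbers for 100% of peaks (tolerance 0.05) and was tested on simulated data. The lists hold no read totals, so depth is known only as this background. Peaks were assigned to GENCODE vM21 genes by centre within 3 kb of a TSS and compared with bedtools 2.31.1 (overlap of at least 1 bp), with Python 3.11.15, numpy 2.4.6, pandas 2.3.3, scipy 1.17.1 and matplotlib 3.10.9. Sequences came from the RefSeq GRCm38.p6 genome; a gene without a promoter peak was given its most upstream TSS. Shares have exact binomial and pileups exact Poisson 95% intervals, for counting error only, and no test between genotypes was made.

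The members and gene lists were chosen with earlier results of these data known. Named with full values are genes with a promoter peak in 1 list only, the 2 strongest of each role group and the 5 with the largest difference in percentile; all genes that ranked lower in the KO list are named as well. Alternatives were thresholds on −log10 q, equal numbers of peaks, scaled depth, other promoter widths, annotations and overlaps, and other sequence windows. A further marker list is not reported here.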

Additional observations from a re-analysis of the deposited data

How the results depend on the processing

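Of 73 alternative values 51 stayed within 1.5 times the main value for a count, or within its binomial interval for a share, and 22 moved past it. No rank share crossed to the other side of an even split. With peaks of a −log10 q of at least 1.3, 30 genes had a promoter peak in both lists (39.5% of all protein-coding genes). There 12 had one in the KO list only (20.9% of all) and 2 in neither (33.8% of all). With peaks past a −log10 q of 5, 1 gene had one in both lists (3.22% of all), 2 in the WT list only (0.948%), 13 in the KO list only (14.4%) and 28 in neither (81.4%). There 33.3% of the 3 WT and 7.14% of the 14 KO peaks overlapped the other list, against 74.7% and 17.7% of promoter peaks of all genes. These shares lie below their backgrounds but rest on too few peaks to be read as a reversal. With equal numbers of peaks, 3 genes had one in the KO list only (13.2% of all) and 2 in neither (27.7%). Promoters of 1 kb to each side gave 1 gene, E2f4, in the WT list only (5.68% of all) and 1, E2f6, in neither (34% of all), with overlaps of 79.2% and 56.1% against 63.4% and 46%, and Mcm3 joined the genes in the KO list only. E2f4 was also the 1 gene in the WT list only with TSSs of protein-coding transcripts (6.52% of all), with curated RefSeq TSSs (6.73%; 1 gene, E2f6, in neither, 26.9% of all) and with each peak given to its nearest gene (7.47%; 2, Aurka and Cdc25b, in neither, 28.8% of all). A reciprocal overlap of at least 50% lowered the shared peaks to 31.4% and 25.6%, against 24.7% and 19.7%. Within 100 bases of the strongest summit the E2F words were found at 9.09% of the genes, against 1.44% of all genes with a promoter peak. The strongest peak ranked higher in the KO list at 73.8% of the genes with equal numbers of peaks (62.2% of all) and at 87.5% past a −log10 q of 5 (91.5% of all), the lowest and highest of these shares. Scaling the KO depth to the WT background removed 216 of 100431 peaks and changed no count of these genes. It applied 1 factor (0.786) to the whole list and left the rank share of all genes at 68.6%. It could thus hardly move a rank and does not measure the part of depth, although its values are among the 51 that stayed. The cause of the changes above was not tested. No paired analysis was possible because each genotype has 1 library, and for the same reason no library could be left out. Depth, known only as a background of 6.32 and 8.04 reads, limits the comparison of single promoters.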

Other observations

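The CCAAT boxes of several of these promoters stood at a regular distance. Pairs on the same strand with their first bases 31 to 34 bases apart, a range set after the positions had been seen, were found at Ccnb1, Ccnb2, Cdk1, E2f7 and Aurka, which is 5 of 44 genes (11.4%, exact binomial interval 3.79% to 24.6%), against 1.07% of all protein-coding genes. Ccnb2 has 2 such pairs, with boxes at -94, -61 and -28.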
